A study of Mus musculus with 38 samples.

Results

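The fibrillar collagens described here are 7 genes, Col1a1, Col1a2, Col3a1, Col5a1, Col5a2, Col5a3 and Col11a1, out of 55487 genes measured by bulk RNA sequencing. They were chosen by name, as the rows whose Ensembl mouse identifier maps to these symbols, and all 7 passed the filter on low counts in both the tumors and the cell lines. The tumors grew in the omentum, the fat-rich apron of the abdomen to which high-grade serous ovarian cancer (HGSOC) often spreads, after intraperitoneal injection of mouse HGSOC cells into wild type female mice aged 8 to 9 weeks. In the 60577 model the mice were FVB, and in the HGS2 model C57BL/6J. Treated mice received carboplatin (20 mg/kg) with paclitaxel (10 mg/kg) weekly for 3 doses, from day 21 after injection in 60577 and from day 49 in HGS2, and control mice received vehicle. Tumors were taken 1 day (TP1), 7 days (TP2) or 21 days (TP3) after the last dose, and TP3 has treated tumors only. The 60577 groups held 3 control and 3 treated tumors at TP1, 3 and 4 at TP2 and 4 treated at TP3. The HGS2 groups held 3 and 3 at TP1, 4 and 3 at TP2 and 4 treated at TP3. The first of these 4 is missing from the tables of the study. It stayed out of the main tests, is given as a value and was added back in an alternative analysis. The 60577 and HGS2 cells were also sequenced from monoculture, with 2 libraries each.

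Fibrillar collagens are the rope-like proteins that give connective tissue its tensile strength. Procollagen chains are hydroxylated and wound into triple helices in the endoplasmic reticulum, trimmed by proteases outside the cell, assembled into fibrils and crosslinked by lysyl oxidases. Col1a1 and Col1a2 encode the chains of type I collagen, the main component of most fibrils. Col3a1 encodes type III collagen, which mixes with type I in soft and in healing tissue. Col5a1, Col5a2 and Col5a3 encode type V chains, which start fibrils and limit their width, and Col11a1 encodes the type XI counterpart, typical of cartilage and often high in the fibroblasts of carcinomas. Fibroblasts are the usual main source of these transcripts in tumors.

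In GRCm38, Col1a1 (ENSMUSG00000001506) lies at chr11:94936224-94953042 on the plus strand, Col1a2 (ENSMUSG00000029661) at chr6:4504814-4541544 plus and Col5a1 (ENSMUSG00000026837) at chr2:27886425-28039514 plus. Col3a1 (ENSMUSG00000026043, chr1:45311538-45349706, plus) and Col5a2 (ENSMUSG00000026042, chr1:45374321-45503282, minus) are neighbors on chromosome 1. Col5a3 (ENSMUSG00000004098) lies at chr9:20770050-20815067 minus and Col11a1 (ENSMUSG00000027966) at chr3:114030540-114220718 plus. Their longest annotated transcripts have between 51 and 67 exons, and their exons cover between 5348 bases (Col1a2) and 8406 bases (Col5a1).

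The RefSeq promoter table for GRCm38.p6 holds 5 of the 7 genes, all but Col1a1 and Col5a2. The 250 bases before the start are shown for 4 of them, because Col1a2, Col3a1 and Col5a1 rose together in treated 60577 tumors at TP1 whereas Col11a1 did not. Col5a3 also rose there, and its window is described but not shown, so these windows do not set genes that rose against the others. Capitals mark the motifs found on either strand. The letters searched were CCAAT for the CCAAT box, TATAAA for the TATA box, GGGCGG for the GC box and TGANTCA for AP-1, and no match overlapped another.
Col1a2, chr6:4505368-4505617, plus strand: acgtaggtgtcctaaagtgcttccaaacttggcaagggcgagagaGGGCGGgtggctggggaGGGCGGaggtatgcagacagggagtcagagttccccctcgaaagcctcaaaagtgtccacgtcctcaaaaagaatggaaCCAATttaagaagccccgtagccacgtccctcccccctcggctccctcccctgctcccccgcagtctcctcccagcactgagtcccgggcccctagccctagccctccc
Col3a1, chr1:45311288-45311537, plus strand: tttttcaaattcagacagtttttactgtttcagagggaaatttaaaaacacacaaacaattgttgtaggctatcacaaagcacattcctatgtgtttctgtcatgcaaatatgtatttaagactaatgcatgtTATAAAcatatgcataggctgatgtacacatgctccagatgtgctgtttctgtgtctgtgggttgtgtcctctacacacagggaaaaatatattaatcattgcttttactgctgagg
Col5a1, chr2:27886175-27886424, plus strand: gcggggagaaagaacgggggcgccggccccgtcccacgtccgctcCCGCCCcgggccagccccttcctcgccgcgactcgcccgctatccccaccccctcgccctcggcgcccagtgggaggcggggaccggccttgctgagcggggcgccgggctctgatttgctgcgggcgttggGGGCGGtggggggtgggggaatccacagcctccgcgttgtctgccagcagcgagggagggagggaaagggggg
Col11a1, chr3:114030290-114030539, plus strand: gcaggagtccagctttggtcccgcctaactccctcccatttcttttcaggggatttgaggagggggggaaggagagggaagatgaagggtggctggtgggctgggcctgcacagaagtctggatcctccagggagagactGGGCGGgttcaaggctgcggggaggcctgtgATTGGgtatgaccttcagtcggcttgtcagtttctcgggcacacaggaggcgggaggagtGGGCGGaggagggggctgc
The Col1a2 window held a CCAAT box from 105 to 109 bases before the RefSeq start and 2 GC boxes, and the Col11a1 window held a CCAAT box from 75 to 79 bases before it, read on the minus strand, and 2 GC boxes. The Col3a1 window held a TATA box from 112 to 117 bases before the start and none of the other motifs. The Col5a1 window held 2 GC boxes, and the window of Col5a3 (not shown) held a CCAAT box and 2 GC boxes. Among 32851 mouse promoter windows of this length, 33.8% hold CCAAT, 32.7% the GC box, 12.4% TATAAA and 6.75% the AP-1 letters, which none of the 5 windows held. The RefSeq start of Col1a2 lies downstream of the annotated gene start given above. These matches describe letters in the windows and no binding was measured.

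Total expected counts ranged from 17839635 to 49299442 in the tumors and from 31633121 to 42461995 in the cell line libraries. The least covered of the 7 genes was Col11a1, with as few as 11 counts in a 60577 tumor at TP3, while Col1a1 had at least 51354 counts in each tumor. Levels are given as RPKM, counts scaled by the length of the exons and by the library's total after TMM adjustment (edgeR's scaling between libraries). Genes of different length can thus be compared, and tumors and cell lines were scaled separately. Changes are log2 fold changes of edgeR's quasi-likelihood test, two-sided, each with its standard error (SE). A gene was called, and is said to have risen or fallen, when its Benjamini-Hochberg adjusted p over all genes tested was below 0.05 and its change exceeded 1 on the log2 scale. Where groups are said not to overlap, the share of all genes tested that did the same is not given, so those statements only describe the values. The replicates are separate tumors, which nothing in the labels pairs. For the cell lines, no source says whether the 2 libraries came from separate cultures, so those p-values may measure technical spread. In bulk tissue, a change in the number of collagen-producing cells and a change in RNA per cell cannot be told apart.

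The tumors of the models differed in how much of their RNA was fibrillar collagen. In 60577 tumors the 7 genes took between 0.683% and 2.88% of all counts (median 0.903%), and in HGS2 tumors between 2.82% and 13.4% (median 5.88%). In vehicle-treated 60577 tumors at TP1, Col1a1 stood at 353, 617 and 673 RPKM, and at TP2 at 575, 431 and 358. In vehicle-treated HGS2 tumors it stood at 2448, 5234 and 11769 RPKM at TP1, and at 5267, 2686, 1899 and 3988 at TP2. No HGS2 control was as low as any 60577 control. The same held for Col3a1, which ranged from 314 to 573 RPKM in the 60577 controls and from 1687 to 6069 RPKM in the HGS2 controls. Col11a1 showed the widest gap, with 60577 controls between 0.105 and 0.905 RPKM and HGS2 controls between 8.72 and 122 RPKM.

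All 7 genes were called higher in HGS2 than in 60577 controls (in this comparison 22% of all genes tested were called in either direction). None of the 7 overlapped between the models, and the share of all genes tested without overlap is not given here. The log2 fold change was 6.20 for Col11a1 (SE 0.60, adjusted p = 5.43e-09), 3.25 for Col1a1 (SE 0.39, adjusted p = 2.55e-07) and 3.03 for Col1a2 (SE 0.37, adjusted p = 3.37e-07). It was 2.97 for Col5a1 (SE 0.20, adjusted p = 1.23e-11) and 2.92 for Col3a1 (SE 0.28, adjusted p = 5.52e-09). The type V chains differed less for Col5a3, at 2.53 (SE 0.39, adjusted p = 9.03e-06), and least for Col5a2, at 1.46 (SE 0.20, adjusted p = 1.42e-06). The median over the 7 was 2.97, against 0.05 over all genes tested. Each of the 7 adjusted p-values was below 0.05 in all 22 alternative analyses. Fibroblast markers were also higher in HGS2, with 7 of 9 called and a median log2 fold change of 2.25, and 5 of 5 epithelial markers tested were lower, with a median of -2.92. The 5 pancreatic acinar markers were called higher, with a median of 10.85, but their summed levels overlapped between the models. They ran from 6.81 to 88314 CPM (here counts scaled by the library's TMM-adjusted total) in HGS2 controls and from 4.86 to 1024 CPM in 60577 controls. Among the controls, only HGS2 TP1 control 3 and TP2 control 2 exceeded 10000 CPM. Of the leukocyte genes 3 of 4 were higher, with summed levels of 465 to 1187 CPM in HGS2 and 202 to 424 CPM in 60577 controls. Also higher were 2 of 6 smooth muscle and pericyte, 2 of 5 adipocyte, 1 of 4 endothelial and 2 of 5 chondrocyte and osteoblast genes tested, while 1 of 5 mesothelial genes was lower and none of 3 proliferation genes was called. The part of these cell types in the collagen levels was not tested. Model, mouse strain and age of the tumor cannot be told apart.

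In 60577 controls, Col1a1 led with a mean of 548 ± 171 RPKM at TP1 (SD, n = 3), followed by Col3a1 at 457 ± 117 and Col1a2 at 368 ± 128. These means differed by less than the spread between tumors, but Col3a1 was below Col1a1 within each of the 6 control tumors. Col5a2 followed at 136 ± 27.0 RPKM, then Col5a1 at 41.4 ± 12.7, Col5a3 at 5.15 ± 1.44 and Col11a1 at 0.702 ± 0.251. In HGS2 controls at TP1, the means were 6484 ± 4785 RPKM for Col1a1, 4187 ± 2171 for Col3a1 and 3426 ± 2072 for Col1a2. There Col5a2 at 412 ± 170 and Col5a1 at 358 ± 42.3 overlapped, as did Col5a3 at 62.9 ± 60.9 and Col11a1 at 54.9 ± 59.2.

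**Figure D1:**
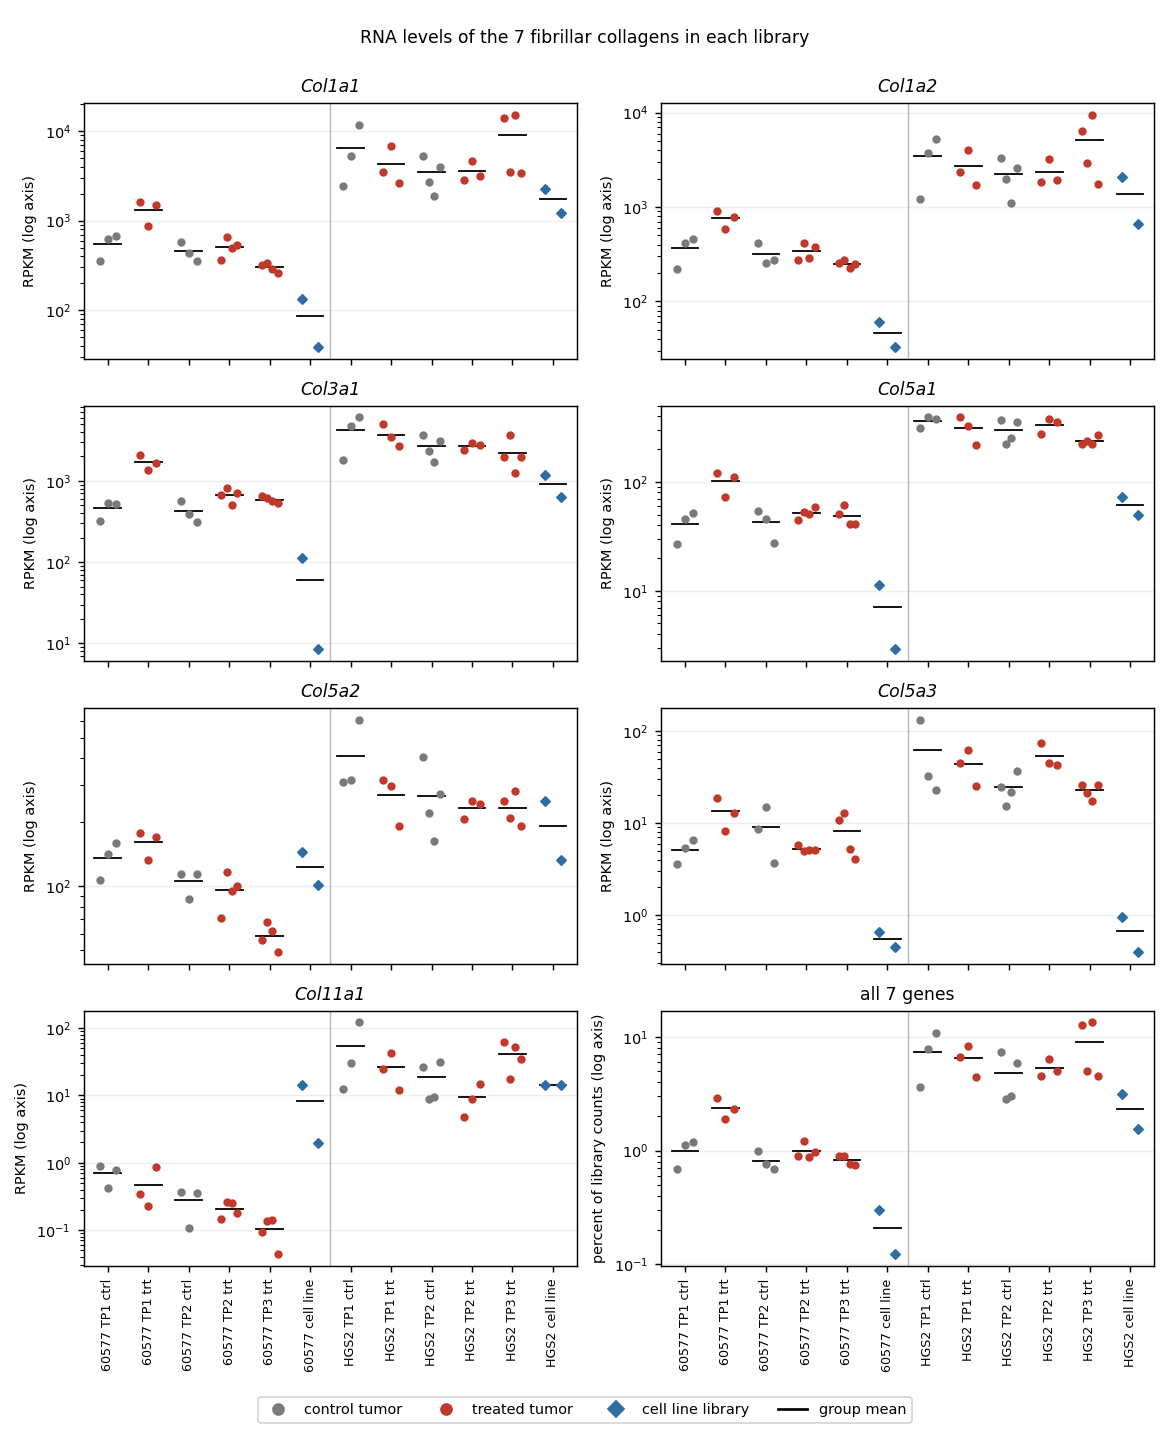
RPKM of each of the 7 fibrillar collagen genes (log scale) and the percent of library counts that they take together, with 1 point per library by model, time point and treatment, the cell lines scaled separately. The HGS2 tumors lie above the 60577 tumors for all 7 genes in the controls, and treated 60577 tumors at TP1 stand above their controls for Col1a1, Col1a2, Col3a1, Col5a1 and Col5a3. Bars are group means over all libraries, 4 for HGS2 TP3.

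At TP1, 1 day after the last dose, 5 of the 7 fibrillar collagen transcripts rose in treated 60577 tumors. Col3a1 stood at 2068, 1365 and 1639.98 RPKM in the 3 treated tumors and at 323, 533 and 516 RPKM in the 3 controls. The lowest treated tumor was above the highest control. Col1a1 stood at 1625, 881 and 1483 RPKM in treated tumors, all above the controls given above. Col5a1, the main initiator chain of type V collagen, stood at 121, 72.8 and 111 RPKM in treated tumors and at 27.0, 45.9 and 51.3 RPKM in controls. Col1a2 ranged from 587 to 916 RPKM in treated and from 222 to 463 RPKM in control tumors, and Col5a3 from 8.22 to 18.9 against 3.61 to 6.48 RPKM. Neither gene overlapped between the groups. Col5a2 and Col11a1 did overlap, at 132 to 179 against 107 to 160.02 RPKM for Col5a2 and at 0.231 to 0.850 against 0.421 to 0.905 RPKM for Col11a1.

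Thus 5 of the 7 genes rose at TP1 in 60577, where 15.6% of all genes tested were called (1567 higher and 968 lower). Col3a1 had a log2 fold change of 1.89 (SE 0.26, adjusted p = 0.00011, 3.72-fold) and Col5a1 of 1.31 (SE 0.28, adjusted p = 0.0026, 2.47-fold). Col1a1 rose by 1.29 (SE 0.29, adjusted p = 0.00364), Col1a2 by 1.06 (SE 0.27, adjusted p = 0.00747) and Col5a3 by 1.39 (SE 0.48, adjusted p = 0.0377). Col5a2 had a log2 fold change of 0.25 (SE 0.20, adjusted p = 0.366), with a 95% interval from -0.14 to 0.64, and Col11a1 of -0.56 (SE 0.52, adjusted p = 0.438), with an interval from -1.58 to 0.46. The median over the 7 was 1.29, against 0.00 over all genes tested.

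Of these 5 calls, those on Col3a1 and Col5a1 stayed below an adjusted p of 0.05 in all 14 alternative analyses, whereas Col5a3 did so in 6 of 14. The count of called genes was 2 in a joint fit of both models, 3 without control tumor 1 and 3 without treated tumor 1. Among the markers, 5 of 9 fibroblast genes rose, with summed levels of 671 to 744 CPM in controls and 1199 to 1728 CPM in treated tumors. The 5 adipocyte genes rose, as did 2 of 4 leukocyte and 2 of 6 smooth muscle and pericyte genes. Of the epithelial genes 5 of 5 tested fell, with Pax8 too low to test and summed levels of 1535 to 1909 CPM in controls and 299.9 to 605 CPM in treated tumors, and 4 of 5 mesothelial and 3 of 3 proliferation genes fell. No endothelial gene (of 4) or pancreatic acinar gene (of 5) was called, and 1 of 5 chondrocyte and osteoblast genes tested fell. The part of these cell types in the collagen changes was not tested.

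At TP2, 7 days after the last dose, the levels of all 7 genes overlapped between treated and control 60577 tumors. Col1a1 stood at 359, 649, 495 and 528 RPKM in treated tumors, which overlap the controls. Col3a1 stood at 667, 809, 509 and 717 RPKM in treated and at 573, 396 and 314 RPKM in control tumors, and the groups overlapped. None of the 7 genes was called by edgeR, where 24.4% of all genes tested were called, and 1 of them, Col3a1, had an unadjusted p below 0.05. DESeq2's Wald test and limma-voom called 0 as well. The log2 fold change of Col3a1 was 0.65 (SE 0.24, adjusted p = 0.0315), under the required size, and its adjusted p was below 0.05 in 6 of 15 alternative analyses. That of Col1a1 was 0.15 (SE 0.27, adjusted p = 0.655), with a 95% interval from -0.38 to 0.67. Without TP2 control 3, 1 gene was called, and with an offset for length and GC content also 1. Of 9 fibroblast markers 5 were called higher at this time, and their summed levels were 791 to 2246 CPM in treated and 781 to 868 CPM in control tumors. The 5 adipocyte and 3 of 4 leukocyte markers were also higher, and the 5 epithelial and 3 proliferation markers tested were lower, and their part was not tested.

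Between TP1 and TP2, 4 of the 7 genes fell in treated 60577 tumors, with 6.02% of all genes tested called. Col1a1 fell by 1.40 on the log2 scale (SE 0.27, adjusted p = 0.00552), Col3a1 by 1.33 (SE 0.24, adjusted p = 0.00423), Col1a2 by 1.19 (SE 0.25, adjusted p = 0.00821) and Col5a3 by 1.37 (SE 0.44, adjusted p = 0.0434). Col5a1 had a log2 fold change of -0.99 (SE 0.26, adjusted p = 0.0193) and Col5a2 of -0.76 (SE 0.18, adjusted p = 0.0151), both under the required size, and neither group of treated tumors overlapped the other for either gene. Col11a1 had -1.19 (SE 0.50, adjusted p = 0.0982). Of the markers, 2 of 4 leukocyte genes were higher, Cd79a of B cells by 2.13 (adjusted p = 0.0462) and Cd3e of T cells by 1.33 (adjusted p = 0.0302), and 1 of 6 smooth muscle and pericyte genes was lower, Acta2 at -1.03 (adjusted p = 0.0494). None of the 9 fibroblast genes was called, nor any gene of the other 7 marker lists, and their part was not tested. The count of genes that fell was 2 without the first treated TP1 tumor and 1 in a joint fit of both models. These tumors are also the treated arms of the comparisons above, so the changes are not independent of them.

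At TP3, 21 days after the last dose, 1 of the 7 genes was called against TP2 controls. Col1a1 stood at 316, 336, 287 and 262 RPKM in the 4 treated tumors, below all 3 TP2 controls, which are the nearest in time since no controls were taken at TP3. Col5a2 stood at 55.7, 68.0, 61.5 and 49.1 RPKM, also below the TP2 controls at 115, 87.6 and 115 RPKM. Col3a1, at 654, 608, 562 and 529.9 RPKM, overlapped them. Against the TP2 controls, Col11a1 fell by 1.40 on the log2 scale (SE 0.52, adjusted p = 0.0341), from 0.105 to 0.368 RPKM in controls to 0.0433 to 0.139 RPKM, and these ranges overlapped. This call stands beside 24.4% of all genes tested, and no member was called without any one of 4 of the tumors, namely TP2 controls 1 and 3 and TP3 tumors 1 and 4. Col5a2 had a log2 fold change of -0.84 (SE 0.18, adjusted p = 0.00145), under the required size, and its adjusted p was below 0.05 in 15 of 15 alternative analyses. Col1a1 had -0.59 (SE 0.27, adjusted p = 0.0768) and Col3a1 0.47 (SE 0.24, adjusted p = 0.117). Treatment and time cannot be told apart in these values.

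From TP2 to TP3 in treated 60577 tumors no gene of the 7 was called by edgeR, DESeq2 or limma-voom, with 7.87% of all genes tested called by edgeR. The unadjusted p was below 0.05 for 2 of them. Col5a2 had a log2 fold change of -0.69 (SE 0.17, adjusted p = 0.00979), with an adjusted p below 0.05 in 16 of 16 alternative analyses, and Col1a1 of -0.74 (SE 0.25, adjusted p = 0.034), in 4 of 16. Col3a1 had -0.18 (SE 0.22, adjusted p = 0.536). Between the 2 control times, no member and 0% of all genes tested were called by edgeR, with 1501 genes and 1 member, Col11a1, at an unadjusted p below 0.05. DESeq2 and limma-voom called no member either. Col11a1 had -1.35 (SE 0.53, adjusted p = 0.479), and the other 6 ranged from -0.36 to 0.83.

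Fibroblast markers were called higher at TP3 in 60577. Of 9 fibroblast genes 8 were called higher than in TP2 controls, with summed levels of 2807 to 3610 CPM against 781 to 868 CPM, and the median log2 fold change was 1.48. The 7 collagens had a median of -0.32. The difference between the lists was not tested, and Dcn and Lum stand in both the fibroblast and the fibril-associated list. Fap stands in both the fibroblast list and that of collagen breakdown and uptake. Col2a1 stands in both the list of other fibrillar chains and the chondrocyte and osteoblast list. Adipocyte markers, 5 of 5 higher, summed to 1158 to 1694 CPM against 2.58 to 16.9 CPM, and their part in the collagen values was not tested.

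**Figure D2:**
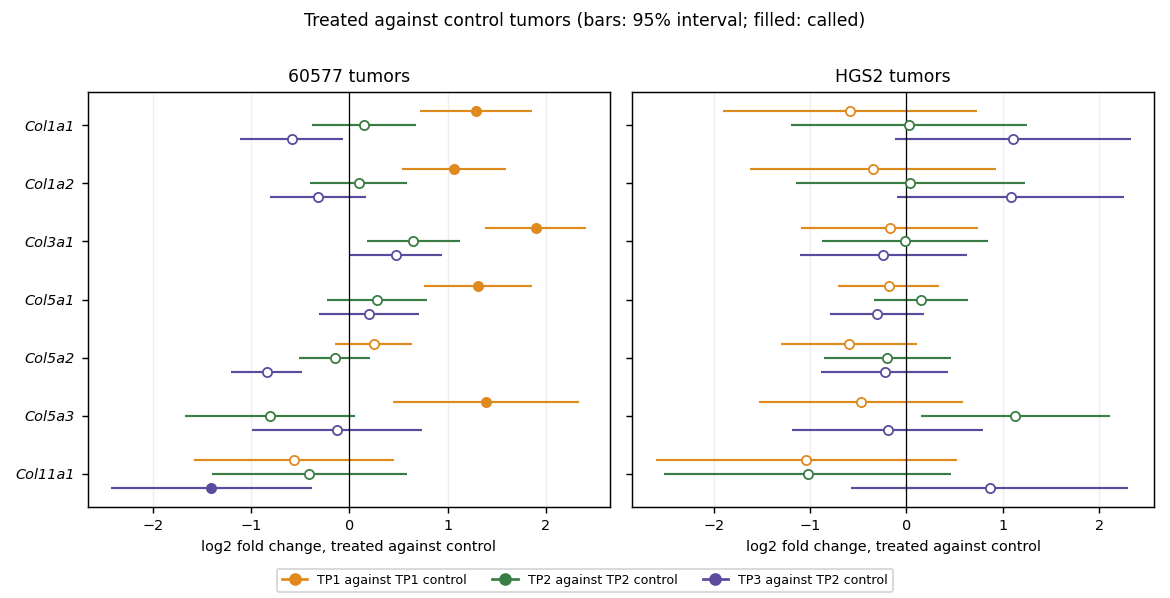
Log2 fold change (x axis) of each of the 7 genes with its 95% interval (bars) for treated against control tumors at TP1 and TP2 and for TP3 treated against TP2 control tumors, with 60577 on the left and HGS2 on the right. Filled points were called, and in 60577 the TP1 values of 5 genes lie above 1 whereas the HGS2 intervals at TP1 span 0 for all 7 genes.

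The genes that make, mature and remove fibrils are read against the 15.6% of all genes tested that were called at TP1, and their difference from the chains was not tested. At TP1 in 60577, 4 of 7 genes of collagen breakdown and uptake rose (median log2 fold change 1.27), among them Ctsk, a collagen-degrading cathepsin, at 3.58 (SE 0.60, adjusted p = 0.000428), and Mmp8, the neutrophil collagenase, at 3.57 (SE 0.83, adjusted p = 0.00424). Ctsk ranged from 23.9 to 234 RPKM in treated and from 6.75 to 12.8 RPKM in control tumors. Of the procollagen proteases and their enhancers 2 of 7 tested rose, Bmp1 (1.04, SE 0.24) and Tll1 (1.81, SE 0.55), which remove the C-propeptide. Of 18 folding and modification genes 1 rose, the prolyl 3-hydroxylase family member P3h3 (1.10, SE 0.11), and of 5 crosslinking genes none was called. In the fibril-associated list 1 of 10 rose, Lum (2.30, SE 0.59), which encodes the proteoglycan lumican, and 1 fell, Col14a1 (-1.01, SE 0.28). Of 7 collagen receptors, Ddr2 rose by 2.56 (SE 0.35), Itga2 also rose and Ddr1 fell. Of the other 4 fibrillar chains, Col24a1 rose by 2.12 (SE 0.53, adjusted p = 0.00672), from 1.01 to 1.18 RPKM in controls to 3.53 to 6.03 RPKM in treated tumors.

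At TP2 the counts of the lists stand beside 24.4% of all genes tested that were called. Of the 18 folding and modification genes 4 fell, namely P4ha2 (-2.08, SE 0.33, adjusted p = 0.000124), P4hb (-1.74), Plod1 (-1.47) and P4ha1 (-1.29), which encode subunits of the prolyl 4-hydroxylases and a lysyl hydroxylase. P4ha2 ranged from 6.49 to 8.89 RPKM in treated and from 17.8 to 58.5 RPKM in control tumors. Of the crosslinking enzymes Lox (-1.89, SE 0.34, adjusted p = 0.000358) and Loxl2 (-1.87, SE 0.29, adjusted p = 0.000122) fell, 2 of 5. Loxl2 ranged from 14.0 to 25.4 RPKM in treated and from 49.8 to 94.7 RPKM in control tumors, so the groups did not overlap. Mmp13, a collagenase, fell by 3.26 (SE 0.60), the only breakdown gene called. Among genes called higher were 2 of the other fibrillar chains, Col24a1 and Col27a1, the protease Tll1 (1 of 7), 2 receptors of 7, and Lum and Col6a3 of the fibril-associated list, where Col14a1 fell again, while the receptor Itgb1 fell. The medians over the lists were 1.25 for the other fibrillar chains, -0.62 for folding, 0.53 for processing, 0.26 for crosslinking, 0.10 for fibril-associated, -0.06 for breakdown and 0.17 for receptors.

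At TP3 against TP2 controls, 6 of 18 folding genes and 2 of 5 crosslinking genes were lower, and 1 folding gene was higher, beside 24.4% of all genes tested that were called. In the fibril-associated list 4 of 10 were higher and none lower, in the processing list 2 of 7 were higher, and none of the 4 other fibrillar chains was called. Of the breakdown genes 1 was higher and 2 lower, and of the receptors 2 were higher and 1 lower.

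**Figure D3:**
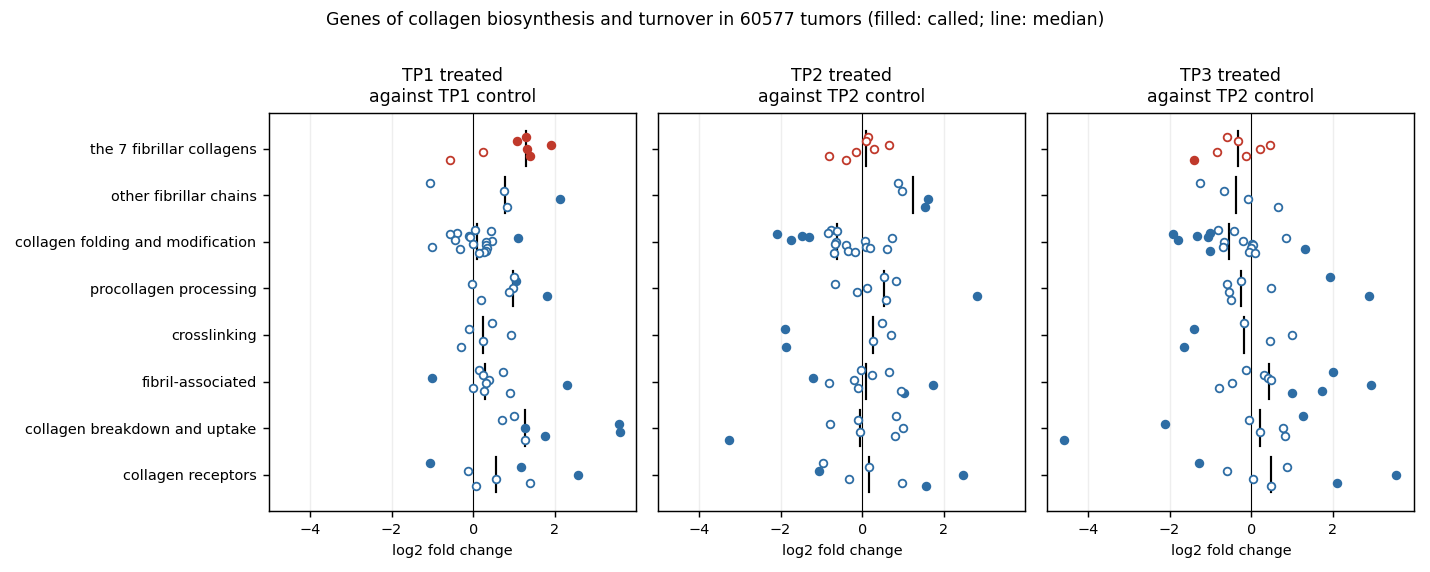
Log2 fold change of treated against control tumors of the 60577 model for each gene of the collagen-related lists, with TP3 set against TP2 controls, where each point is a gene, filled points were called and lines are medians. At TP2 the folding list reaches below -2 with P4ha2, and the crosslinking list holds Lox at -1.89 and Loxl2 at -1.87.

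In HGS2 tumors no treatment difference passed the test, and the 7 genes varied widely between tumors of a group. At TP1 Col1a1 stood at 3469, 6840.1 and 2632 RPKM in treated tumors, within the range of the controls, and Col3a1 at 4968, 3444 and 2690.4 RPKM against 1813, 4680.2 and 6069 RPKM. Groups overlapped for all 7 genes. Log2 fold changes ranged from -1.04 for Col11a1 (SE 0.80) to -0.17 for Col3a1 (SE 0.47), whose 95% interval ran from -1.09 to 0.75. At TP2 Col1a1 stood at 2828, 4651 and 3195 RPKM and Col3a1 at 2377, 2891 and 2781 RPKM in treated tumors, again within the control range. Col5a3, at 74.8, 45.1 and 43.1 RPKM in treated and 24.9, 15.5, 21.9 and 36.4 RPKM in control tumors, was the only gene whose groups did not overlap. Its log2 fold change was 1.13 (SE 0.50, unadjusted p = 0.0414, adjusted p = 0.648).

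No member was called in any HGS2 comparison by edgeR, DESeq2 or limma-voom. With edgeR 0% of all genes tested were called at TP1 (0 members and 413 genes at an unadjusted p below 0.05), 0% at TP2 (1 member, 1233 genes) and 0% for TP3 treated against TP2 control tumors (0 members, 406 genes). Likewise 0% were called between TP1 and TP2 treated tumors (0 members, 152 genes), 0% between TP2 and TP3 treated tumors (2 members, 1690 genes) and 0% between TP1 and TP2 controls (1 member, 569 genes). None of the 7 collagen-related lists had a called gene in any of them.

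HGS2 tumors at TP3 held the highest type I collagen levels of the series. Col1a1 stood at 3504, 15317 and 3393 RPKM in the 3 tumors tested and at 14147 RPKM in the one left out of the main tests. In the 2 high tumors Col1a2 stood at 9478 and 6382 RPKM and Col3a1 at 1236 and 1959.6 RPKM. The other TP3 tumors held Col3a1 at 3673 and 1967 RPKM, so the value of 1959.6 RPKM was nearly level with the lower of them. The 2 high tumors also carried bone and cartilage markers, with summed levels of 2317 and 1464 CPM against 110 and 120 CPM in the other TP3 tumors. Col11a2, the type XI partner chain of Col11a1 and typical of cartilage, stood at 256 and 194 RPKM in the 2 high tumors. Ibsp, which encodes bone sialoprotein, stood there at 939.8 and 592 RPKM. A treated TP1 tumor with Col1a1 at 6840.1 RPKM had 365 CPM of these markers and Col11a2 at 30.9 RPKM. In all other HGS2 tumors the markers summed to at most 144 CPM and Col11a2 to at most 2.61 RPKM. Among these was TP1 control 3, with Col1a1 at 11769 RPKM, Col11a2 at 0.770 RPKM and Ibsp at 0 RPKM. Comp, of the same marker list, did not set the marked tumors apart, at 13.0 and 26.4 RPKM in the 2 high TP3 tumors and 2.01 RPKM in the TP1 tumor. It stood at 4.57 and 12.6 RPKM in the other TP3 tumors and at 20.4 RPKM in TP2 treated tumor 2. Against TP2 controls the log2 fold change of Col1a1 was 1.11 (SE 0.62) and that of Col1a2 1.08 (SE 0.60), both at an adjusted p of 1. The part of these markers in the levels was not tested. Without the tumors above 300 CPM no member was called in this comparison either.

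The response at TP1 differed between the models for Col3a1 and Col5a1. In a joint fit, the difference of responses (HGS2 minus 60577) was -2.06 for Col3a1 (SE 0.54, adjusted p = 0.0452) and -1.50 for Col5a1 (SE 0.38, adjusted p = 0.0425), against 1.45% of all genes tested that were called. For Col1a1 it was -1.87 (SE 0.74, adjusted p = 0.168), for Col5a3 -1.90 (SE 0.76, adjusted p = 0.176) and for Col1a2 -1.40 (SE 0.71, adjusted p = 0.285). Col5a2 had -0.85 (SE 0.40, adjusted p = 0.252) and Col11a1 -0.46 (SE 0.97, adjusted p = 0.846). The adjusted p was below 0.05 in 6 of 21 alternative analyses for Col3a1 and in 9 of 21 for Col5a1, so both calls lie near the threshold. No member was called without 60577 TP1 control 1 or 2, 60577 TP1 treated 1 or 3, HGS2 TP1 control 3, or HGS2 TP1 treated 1 or 3, each left out alone, and 1 was called without 60577 TP1 control 3 or HGS2 TP1 treated 2. Without the 3 HGS2 tumors high in acinar markers (over 10000 CPM) 0 were called. At TP2 no member differed by edgeR (6.9% of all genes tested were called, and 1 member had an unadjusted p below 0.05), while DESeq2 called 1. The largest difference was 1.93 for Col5a3 (SE 0.70, adjusted p = 0.0737). The models cannot be told apart from strain and time of first dose.

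Ratios within a library show how the mix of chains changed. The percentages are ratios of RPKM and do not depend on scaling. The tested log2 ratios used CPM with a prior count of 2, which weighs more on genes of low count such as Col11a1. Col3a1 stood between 76.6% and 99.8% of Col1a1 per length in the 6 controls of 60577. In treated tumors it stood at 111% to 155% at TP1, 103% to 186% at TP2 and 181% to 207% at TP3. Thus Col3a1 exceeded Col1a1 in all 11 treated 60577 tumors and in no 60577 control. On the log2 scale the ratio was higher by 0.57 in treated than in control tumors over TP1 and TP2 (exact permutation test within time points, two-sided, p = 0.00286, adjusted over 12 ratios p = 0.0171). The ratio of Col5a2 to Col1a1 moved the other way, with 20.0% to 32.1% in controls, 11% to 15.0% in TP1 treated and 17.9% to 19.8% in TP2 treated tumors. Its log2 difference was -0.67 (exact permutation test, p = 0.00143, the smallest possible with 700 permutations, adjusted p = 0.0171).

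Ratios of the other 4 chains to Col1a1 did not pass in 60577. That of Col1a2, the partner chain in type I collagen, had a log2 difference of -0.11 (exact permutation test, adjusted p = 0.497), Col5a1 of 0.11 and Col5a3 of -0.34. Col11a1 had -1.19 (exact permutation test, unadjusted p = 0.0386, adjusted p = 0.154). Without TP2 control 3, 0 of the 6 ratios passed in 60577. In HGS2, 0 of 6 ratios passed by the exact permutation test, none had an unadjusted p below 0.05, and the difference for Col3a1 was 0.16 (adjusted p = 0.619). The difference between the models was not tested for these ratios.

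Between the models' controls, 2 of 6 ratios differed. Col5a2 stood at 5.17% to 12.7% of Col1a1 in HGS2 controls, below all 60577 controls, with a log2 difference of -1.69 (exact permutation test, p = 0.00143, adjusted over 6 ratios p = 0.00429). Col11a1 was higher relative to Col1a1 by 2.77 on the log2 scale, with the same p-values. The ratio of Col3a1 differed by -0.24 (exact permutation test, adjusted p = 0.123).

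**Figure D4:**
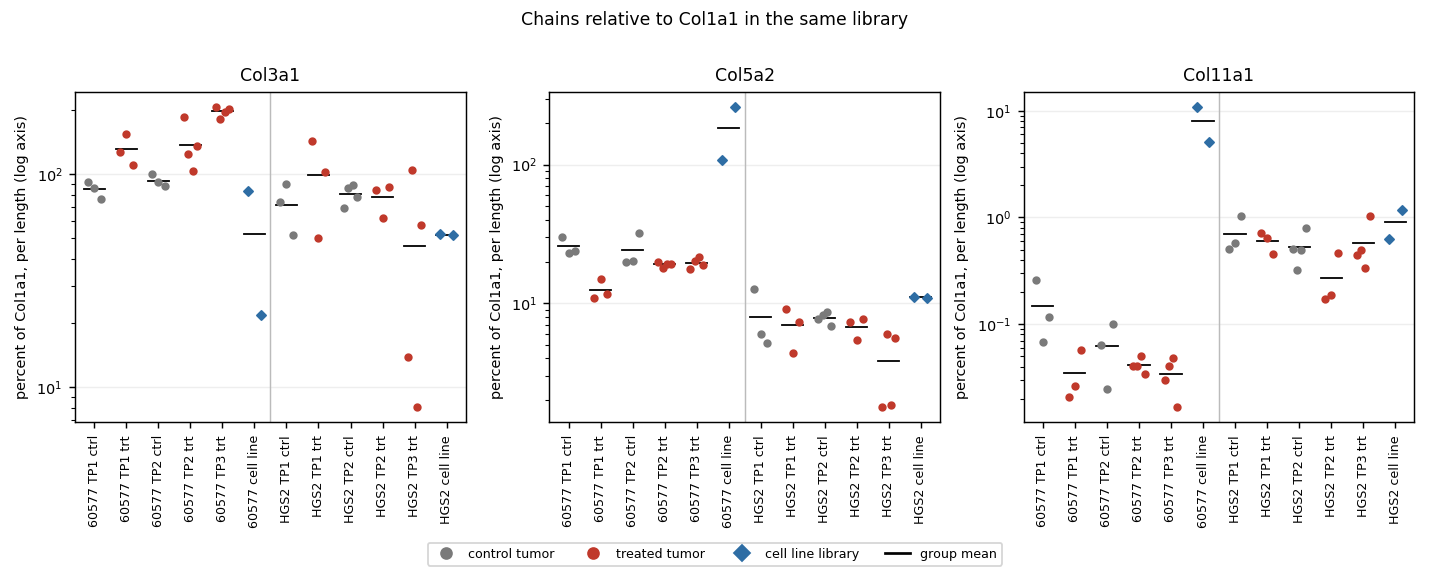
Col3a1, Col5a2 and Col11a1 as percent of Col1a1, each per length of exon, with 1 point per library by model, time point and treatment (log scale, all 34 tumors and the 4 cell line libraries). Col3a1 exceeds Col1a1 in the 11 treated 60577 tumors, while 2 HGS2 tumors at TP3 fall to 13.9% and 8.07%.

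Some chains were more variable than others. Within 60577 groups, the standard deviation of log2 CPM was 0.37 for Col1a1, 0.35 for Col1a2 and 0.31 for Col3a1, but 0.66 for Col5a3 and 0.73 for Col11a1. Col11a1 had as few as 11 counts there. The ratio of Col1a2 to Col1a1 varied least, with a within-group SD of 0.15 in 60577 and 0.23 in HGS2 on the log2 scale. In HGS2, Col1a1 and Col1a2 both varied by 0.86 but Col5a1 by 0.30, and the ratio of Col3a1 to Col1a1 varied by 0.92. This ratio includes 1 TP3 tumor at 8.07%, with 58.0% and 105% in the other TP3 tumors fitted. In the TP1 and TP2 groups of HGS2 its SD ranged from 0.16 to 0.77. These values describe 17 tumors of 60577 and 16 of HGS2 and were not tested.

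In monoculture the HGS2 cells made far more type I collagen transcript than the 60577 cells. Col1a1 stood at 2261 and 1224 RPKM in the HGS2 libraries and at 133 and 38.6 RPKM in the 60577 libraries. Col1a2 stood at 2077 and 662 RPKM against 60.8 and 32.97 RPKM, and Col5a1 at 72.0 and 49.7 RPKM against 11.2 and 2.89 RPKM. These 3 genes were called higher in HGS2 (15.9% of all genes tested were called), and their libraries did not overlap. The log2 fold change was 4.87 for Col1a2 (SE 0.74, adjusted p = 0.0148), 4.34 for Col1a1 (SE 0.76, adjusted p = 0.0201) and 3.11 for Col5a1 (SE 0.68, adjusted p = 0.0338).

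Col3a1 differed more between libraries of a line, at 1178 and 632 RPKM in HGS2 and at 111 and 8.42 RPKM in 60577, and its log2 fold change of 3.92 (SE 1.22) had an adjusted p of 0.0806. Col5a2 stood at 253 and 134 RPKM in HGS2 and at 144 and 101 RPKM in 60577, with a log2 fold change of 0.65 (SE 0.39, adjusted p = 0.293). Col11a1 stood at 14.3 and 14.5 RPKM in HGS2 and at 14.5 and 1.97 RPKM in 60577, and Col5a3 stayed under 1 RPKM in all 4 libraries. The first 60577 library was above the second for all 7 genes. Without the second 60577 library no gene was called, and without the second HGS2 library 5 were.

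Set beside the tumors, which were scaled separately and are not compared by a test, the 60577 line had a chain order of its own. Col5a2 was its leading chain, at 109% and 262% of Col1a1 per length, against 20.0% to 32.1% in 60577 control tumors and 11.2% and 10.9% in the HGS2 line. Col11a1 stood at 10.9% and 5.09% of Col1a1 in the 60577 line and at 0.0245% to 0.256% in 60577 control tumors. The 7 genes took 0.299% and 0.122% of the counts of the 60577 line and 3.14% and 1.55% of those of the HGS2 line. Of the epithelial markers, which HGSOC cells are expected to carry, Krt8 stood at 582 to 615 RPKM in the 60577 line and at 39.0 to 80.6 RPKM in the HGS2 line. Epcam was near 0 in the HGS2 line, at 0 and 0.0785 RPKM, and Pax8, a defining marker of HGSOC, was at most 0.105 RPKM in both lines. Fibroblast markers were called higher in the HGS2 line for 6 of 8 tested and lower for 1, and epithelial markers lower for 4 of 5. Their part in the collagen values was not tested. Among the collagen-related lists, the HGS2 line was higher for 1 of 2 other fibrillar chains tested, 9 of 18 folding, 3 of 7 processing, 2 of 5 crosslinking, 6 of 10 fibril-associated, 1 of 6 breakdown and 3 of 7 receptor genes. It was lower for 1 gene each of the crosslinking, fibril-associated, breakdown and receptor lists.

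The order of groups was similar for the type I chains. For Col1a1 the group means ran from HGS2 TP3 treated tumors at 7405 ± 6853 RPKM (SD, n = 3) through HGS2 TP1 control (6484 ± 4785), TP1 treated (4314 ± 2227), TP2 treated (3558 ± 965) and TP2 control tumors (3459.7 ± 1481). Neighbors in this HGS2 order differed by less than their spread. They were followed by the 60577 groups, with TP1 treated tumors at 1329.8 ± 395, TP1 control at 548 ± 171, TP2 treated at 508 ± 119, TP2 control at 454 ± 110.3 and TP3 treated at 300.2 ± 32.5 RPKM. Among these the TP1 control, TP2 treated and TP2 control means differed by less than their spread.

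The 5 genes outside the list whose log2 CPM followed the mean of the 7 most closely, by the lower of the Pearson correlations in 17 tumors of 60577 and 16 of HGS2, were Tfr2, Zfp469, Pofut2, Col12a1 and Chpf2. Their correlations were 0.83 and 0.80 for Tfr2, 0.74 and 0.76 for Zfp469, 0.81 and 0.71 for Pofut2, 0.70 and 0.74 for Col12a1 and 0.67 and 0.83 for Chpf2, in 60577 and HGS2 in that order. Of the 7 genes themselves, which are part of that mean, Col1a1 reached 0.98 and 0.85 and Col5a3 had the lower value of 0.07. The tumors share treatment and time differences, so these correlations describe likeness only.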

How the data were processed

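Ribosomal RNA was depleted from total RNA of 34 omental tumors and 4 cell line libraries, and strand-specific paired-end reads were sequenced. Per the study's methods and the labels, the authors trimmed reads with Trim Galore 0.6.5, mapped them to GRCm38 with STAR 2.7.0f and quantified genes with RSEM, whose version is not given in the sources used here. They deposited expected counts from RSEM for 55487 genes, unfiltered and not normalized. The later normalization for length and GC content that the study describes is not in them.

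Here expected counts were rounded, and a gene was tested if 25% or more of the libraries reached 1 CPM of the unadjusted total (16241 genes in 33 tumors, 13742 in cell lines). After TMM scaling the tests were run in edgeR 4.0.16 under R 4.3.3 (quasi-likelihood, two-sided, Benjamini-Hochberg over all genes tested). The 5 groups of a model shared a fit, a joint fit of 10 groups compared models, and the cell lines were fitted apart. Calls needed an adjusted p under 0.05 with a log2 fold change beyond 1 in either direction. SEs come from edgeR's F statistics, and 95% intervals assume a normal distribution. RPKM used the exon length of GENCODE M21. Ratios to Col1a1 used CPM with a prior count of 2 and exact permutation within time points, and percentages of Col1a1 are ratios of RPKM. Promoter sequences came from RefSeq (GRCm38.p6). Alternatives used limma 3.58.1 and DESeq2 1.42.0, other filters and scalings, a GC and length offset, blocks, libraries left out and the left-out HGS2 TP3 tumor added back. Tests were first run on simulated data. No 2 replicates of a group were copies (chi-square per degree of freedom of 9.38 or more in 44 pairs).

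The members and the lists (7 of collagen genes and 10 of cell type markers: fibroblast, smooth muscle and pericyte, mesothelial, adipocyte, epithelial, endothelial, leukocyte, chondrocyte and osteoblast, pancreatic acinar and proliferation) were chosen with earlier results of these data known. Named genes were the 7 members, list genes whose call changed between TP1 and TP2 or that had the largest change, and the 5 genes most like the mean of the members. Groups were taken from the labels. Figures were drawn with matplotlib 3.10.9.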

Additional observations from a re-analysis of the deposited data

Results flagged for a closer look

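The response of Col3a1 and Col5a1 at TP1 differed between the models in the joint fit, by -2.06 and -1.50 on the log2 scale (HGS2 minus 60577, edgeR's quasi-likelihood test, adjusted p = 0.0452 and 0.0425). Both genes rose in 60577, and in HGS2 their log2 fold changes were -0.17 (SE 0.47) and -0.18 (SE 0.27). All 3 treated 60577 tumors stood above all 3 controls for both genes. Both adjusted p-values of the difference lie near the threshold. The count of called members ranged from 0 to 2 over 12 analyses that each left out 1 library, and from 0 to 3 over 9 other settings.

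The HGS2 TP3 treated tumor left out of the main tests held Col1a1 at 14147 RPKM and Col1a2 at 6382 RPKM. The HGS2 controls ranged from 1899 to 11769 RPKM for Col1a1 and from 1105 to 5306 RPKM for Col1a2, so both values lie above all of them. An alternative fit with all 17 HGS2 tumors used this tumor. Over 11 other settings no member was called for TP3 treated against TP2 control tumors of HGS2.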

How the results depend on the processing

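Of 530 comparisons of member values that had an adjusted p below 0.05 as reported, 0 changed sign under an alternative. Of all 2185 such comparisons 118 did, none of which had passed as reported. The alternatives reuse these libraries, and values far from 0 could hardly change sign. The counts in this section therefore do not measure how well the results would repeat. Outside the analyses that left out a library, 1040 member values kept their side of the threshold, 41 lost it and 9 gained it, and 140 counts stayed within 1.5 times the reported count while 17 moved. Of the counts of called members, 60577 TP1 (5 as reported) was 2 in the joint fit and 3 with the GC offset and the replicate block together. 60577 TP2 (0) was 1 with the GC offset. 60577 TP3 against TP2 controls (1) was 0 with limma-voom, 0 with the replicate block, 2 with the GC offset and 0 in the joint fit. The 60577 change from TP1 to TP2 in treated tumors (4) was 1 in the joint fit. The TP1 difference between models (2) was 0 without the filter, 1 with limma-voom, 0 with the replicate block, 0 with the GC offset, 0 with both and 0 without the HGS2 tumors high in acinar markers (chosen after seeing the data). It was 3 without those high in bone and cartilage markers, also chosen after seeing the data. The TP2 difference (0) was 1 with DESeq2. The cause was not tested.

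Leaving out 1 library at a time gave counts of 3 to 5 for 60577 TP1, 0 to 1 for TP2, 0 to 1 for TP3 against TP2 controls and 2 to 5 for TP1 to TP2. The TP1 difference between models ranged from 0 to 2 and the TP2 difference from 0 to 1, and was 1 without 60577 TP2 control 3. The cell lines ranged from 0 to 5. Of the ratios, counts ranged from 0 to 3 in 60577, from 0 to 1 in HGS2 (1 without the first TP1 control) and from 2 to 4 between models (4 without the second HGS2 TP1 control). In each such analysis fewer samples were fitted.

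The replicate numbers did not pair the samples. Deviations from the group means of tumors with the same number correlated between -0.418 and 0.318 in 31 pairs of 60577 (8 over 0.1) and between -0.488 and 0.367 in 27 pairs of HGS2 (10 over 0.1). With the replicate number as a block the counts were 4 for 60577 TP1, 3 for TP1 to TP2 and 4 for the cell lines, and 7 for the HGS2 against 60577 controls. For the ratios, a replicate block of 6 pairs (exact sign flips, added after seeing the data) left 0 passing in 60577, 0 in HGS2 and 0 between models (2 as reported in 60577 and 2 between models). There the smallest possible p was 0.0312, so 2 ratios alone could not pass after adjustment. Depth limits Col11a1 in 60577, with as few as 11 counts. In HGS2 SEs reached 0.82, and a missing call there does not show that levels were alike.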
